A study of Mus musculus with 6 samples.

Results

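The genes described here are 10 transcriptional readouts of fibroblast growth factor (Fgf) signalling: the phosphatase gene Dusp6, the Sprouty genes Spry1, Spry2 and Spry4, the Spred genes Spred1 and Spred2, the Ets factor genes Etv1, Etv4 and Etv5, and Il17rd, also called Sef. The rule picks them by name, as genes known to follow Fgf signalling, and uses no measured value, though earlier results of these data were known when they were chosen. All 10 had a named probe on the array, 12 probes in all, among 20021 genes with a named probe, and 9 of the 10 were bright enough to be tested. The tissue was the mouse head with its first branchial arch at embryonic day 9.5. There were 3 Arid3b-null and 3 wild type samples, each a pool of RNA of 4 embryos read on its own one-colour Agilent array. The labels give the genotype only as Arid3b-null or wild type, with no strain, no design of the null allele and no word on the litters behind each pool, so the p-values here measure only how pools differ, which may be technical. Arid3b binds DNA through its AT-rich interaction domain.

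Fgf ligands bind receptor tyrosine kinases and, through the adaptor Frs2 and the small GTPase Ras, activate the kinase Erk. Erk-activated Ets factors then switch on a short list of genes whose products restrain the same pathway, so the level of these genes is widely read as the output of Fgf signalling. In the embryonic head the pathway is known for its part in patterning the midbrain-hindbrain boundary, the anterior forebrain and the first arch, where Fgf8 is a main ligand.

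The promoter windows of 3 members are shown because they hold the 6-base Ets-type core CGGAAG, the kind of sequence through which Ets factors act. The windows run from 250 bases before to 50 bases after the RefSeq start on the assembly GRCm38.p6, all 3 on the plus strand, at chr10:99262981-99263280 for Dusp6, chr2:117120821-117121120 for Spred1 and chr11:19924192-19924491 for Spred2. Capitals mark CGGAAG, or CTTCCG where it is read on the other strand.
Dusp6: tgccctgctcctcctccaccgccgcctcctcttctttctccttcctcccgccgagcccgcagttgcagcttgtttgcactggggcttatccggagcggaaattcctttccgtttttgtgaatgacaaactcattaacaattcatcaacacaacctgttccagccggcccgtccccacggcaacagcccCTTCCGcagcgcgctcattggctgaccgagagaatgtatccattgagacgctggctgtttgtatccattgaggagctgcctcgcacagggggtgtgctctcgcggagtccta
Spred1: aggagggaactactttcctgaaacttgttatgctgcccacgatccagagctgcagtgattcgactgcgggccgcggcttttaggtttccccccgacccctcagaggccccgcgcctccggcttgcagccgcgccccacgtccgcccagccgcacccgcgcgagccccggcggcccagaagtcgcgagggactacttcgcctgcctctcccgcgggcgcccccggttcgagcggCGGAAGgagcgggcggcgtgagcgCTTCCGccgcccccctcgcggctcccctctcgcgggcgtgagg
Spred2: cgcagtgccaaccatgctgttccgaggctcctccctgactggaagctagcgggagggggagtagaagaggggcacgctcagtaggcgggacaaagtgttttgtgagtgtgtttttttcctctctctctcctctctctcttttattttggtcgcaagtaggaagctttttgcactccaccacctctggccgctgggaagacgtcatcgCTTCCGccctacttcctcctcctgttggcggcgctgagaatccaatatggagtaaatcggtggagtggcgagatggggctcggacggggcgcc
Windows were found for 8 of the 10 members, all but Spry4 and Etv4, with 10 windows between them. CGGAAG stood in 3 of these 10 windows, in 3 genes, and in 16.9% of all 32851 windows of the same length, counted on both strands. The shorter core GGAA, which CGGAAG contains, stood in 9 of the 10 windows, in all 8 genes, and in 96.0% of all windows. AGGAAG stood in 4 of the 10 windows, in 4 genes, and in 35.4% of all windows. The longer forms CCGGAAGT and CAGGAAGT stood in 0 of the 10 windows and in 3.89% and 3.33% of all windows. A match describes these letters and is not shown to be a bound site.

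No Fgf feedback target passed the test between Arid3b-null and wild type heads. Of the 9 members tested, 0 rose and 0 fell in limma at a Benjamini-Hochberg adjusted p under 0.05, and 0 were called with the slide as a block (24.7% of all genes), whereas in the first fit 23.5% of all 14906 genes tested did, 12.3% higher and 11.2% lower. At an unadjusted p under 0.05 there were 2 of 9 members, Etv1 and Spred2, both higher in null heads, against 37.6% of all genes. The 3 null arrays lay apart from the 3 wild type arrays for 2 of 9 members, Spred1 and Etv1, and for 42.4% of all genes. Differences are log2 values, null minus wild type, of the probe signal relative to the 75th percentile of all probes on the same array. They were above 0 for 7 of the 9 members, with a median of 0.22, where the median over all genes was -0.04. The 95% intervals of the 9 members, each taken alone, all lay between -0.56 and 1.01, so this many arrays leave room for moderate differences in single members. A bulk measurement of this kind cannot tell fewer cells of a type from less RNA per cell.

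**Figure D1:**
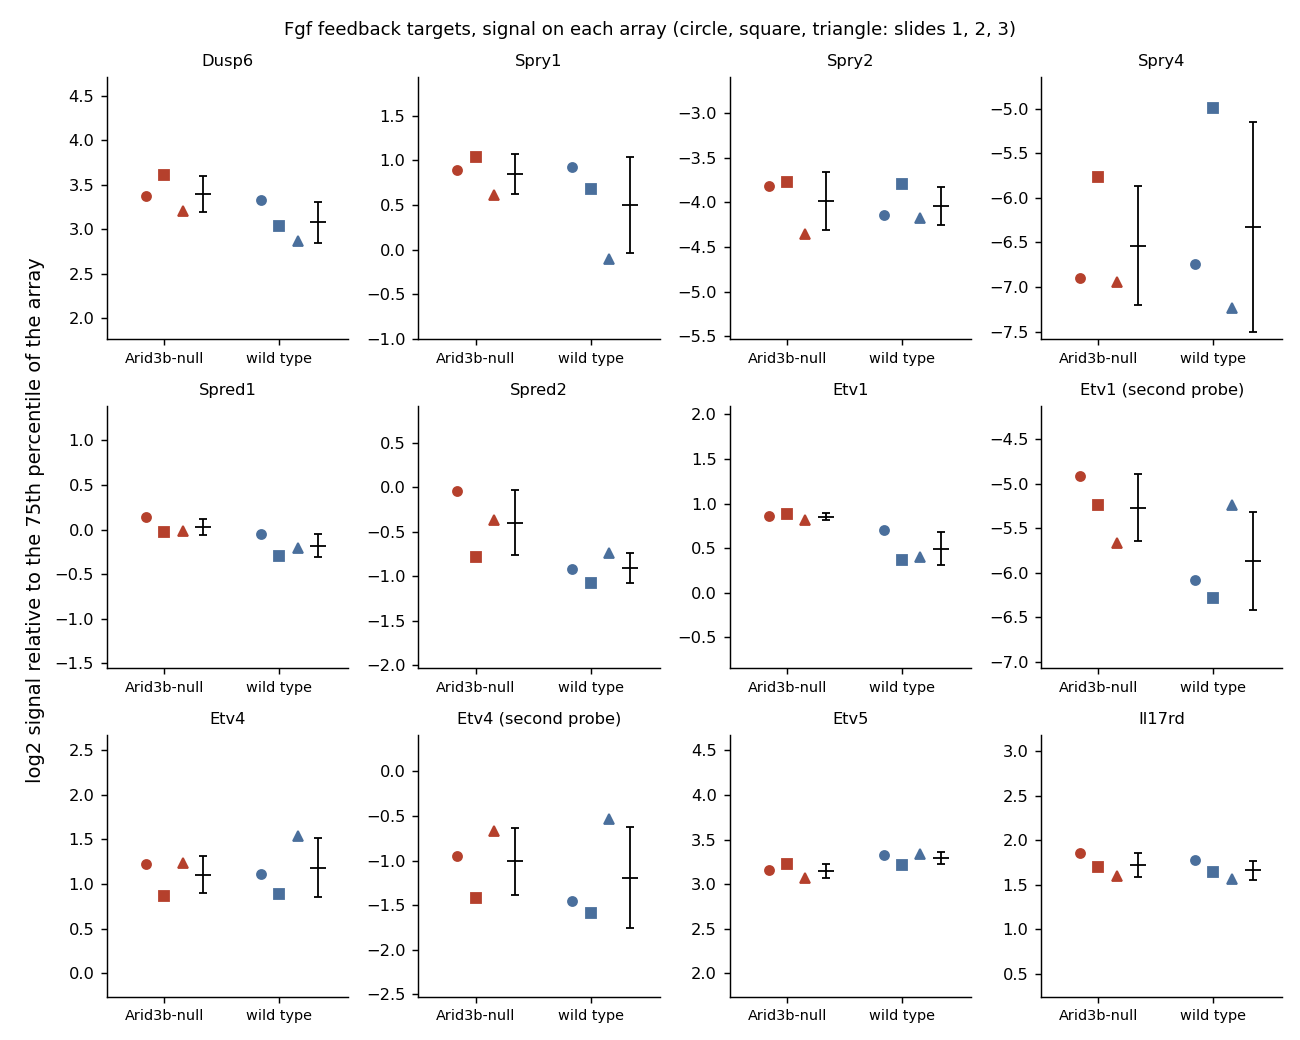
Log2 signal relative to the 75th percentile of the array for the 12 probes of the 10 Fgf feedback targets, on each Arid3b-null array (red) and each wild type array (blue), with circle, square and triangle for slides 1, 2 and 3 and bars for the mean and SD of 3 arrays. Every panel spans the same number of log2 units. The groups overlap in all panels but Spred1 and the first probe of Etv1.

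The targeted gene was lower on every null array, with a difference of -1.19 for the brightest probe of Arid3b (adjusted p = 0.0265 in limma) and -1.37 and -2.33 for its other 2 probes. The sources used here do not say how the null allele was made, so these probes cannot be placed relative to its change. Leaving out null replicate 1, 2 or 3 ended the call of the brightest probe (adjusted p of 0.0861, 0.0838 and 0.0690), as did testing without the filter on dim probes (0.0599). On each array 67.9% to 70.3% of spots other than controls passed as well above background, and correlations across genes, which are not independent replicates, were 0.992 to 0.993 among null arrays, 0.977 to 0.986 among wild type arrays and 0.965 to 0.975 between groups. Each slide held the null and the wild type array of 1 replicate number, the null array always second on the slide and the wild type array first, so genotype and slide position cannot be told apart.

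Dusp6 encodes the cytoplasmic phosphatase that removes the activating phosphates from Erk, and it is among the most used readouts of Fgf signalling. Its signal was 3.37, 3.61 and 3.21 on null arrays 1, 2 and 3, against 3.33, 3.03 and 2.87 on wild type arrays. The third null array lay below the first wild type array, so the groups overlapped. Before scaling, the processed signal of its probe was 7173, 7636 and 9036 scanner units on null arrays and 6836, 5851 and 4817 on wild type arrays. The difference was 0.32 ± 0.18 (limma SE, n = 3 arrays a group; 95% interval -0.10 to 0.74; adjusted p = 0.235), or 1.25-fold higher in null heads. The difference within slides 1, 2 and 3 was 0.04, 0.57 and 0.34, and with the slide as a block the adjusted p was 0.192. Dusp6 passed the threshold with normexp background correction on the raw signals followed by quantile normalization (log2 difference 0.49, adjusted p = 0.0393). It stood just short of the threshold with quantile normalization of the processed signals alone (0.48, adjusted p = 0.0501).

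The Sprouty proteins block the step from the receptor to Ras and Raf. Spry1 had a signal of 0.90, 1.04 and 0.61 on null arrays and 0.93, 0.68 and -0.11 on wild type arrays. The spread came mostly from the third wild type array, and the difference of 0.35 ± 0.28 (adjusted p = 0.408) was 0.04 without that array. Within slides 1, 2 and 3 it was -0.04, 0.36 and 0.72, and its 95% interval of -0.31 to 1.01 was the widest among the members tested. Spry2 was dim but well above background on all 6 arrays. It had -3.82, -3.77 and -4.36 on null arrays and -4.14, -3.79 and -4.18 on wild type arrays, and the ranges overlapped nearly fully. The processed signal was only 45.9 to 49.1 scanner units on null arrays and 36.4 to 51.6 on wild type arrays. The difference was 0.05 ± 0.21 (95% interval -0.43 to 0.54, adjusted p = 0.874) and lay at 0.32, 0.02 and -0.18 within slides 1, 2 and 3, and its sign turned under several alternatives given in the closing section. The Spry4 probe passed as well above background on 2 null arrays and 1 wild type array, so it was not tested in the main comparison. It read -6.90, -5.77 and -6.94 on null arrays and -6.74, -4.996 and -7.23 on wild type arrays, with both groups highest on slide 2. Within the slides it differed by -0.15, -0.77 and 0.29. Without the filter on dim probes its difference was -0.21 (adjusted p = 0.855).

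The Spred proteins, relatives of the Sproutys, hold back the activation of Raf. Spred1 had a signal of 0.14, -0.03 and -0.01 on null arrays and -0.05, -0.30 and -0.20 on wild type arrays. All null arrays were higher than all wild type arrays, though the second null array exceeded the first wild type array by very little. The difference was 0.22 ± 0.13 (adjusted p = 0.286) and was alike within the slides, at 0.18, 0.27 and 0.19. Spred1 was 1.16-fold higher in null heads, with a 95% interval of 0.932 to 1.45 for the fold. Spred2 had the largest difference among the members tested. It read -0.05, -0.78 and -0.36 on null arrays and -0.91, -1.07 and -0.74 on wild type arrays. The first null array stood highest and the second overlapped the wild type range, and the spread was wider among null arrays (SD 0.37) than among wild type arrays (SD 0.16). The difference was 0.51 ± 0.21 (95% interval 0.02 to 1.01, unadjusted p = 0.0448 and adjusted p = 0.124 in limma, and 0.0803 adjusted with the slide as a block). Within slides 1, 2 and 3 it was 0.87, 0.29 and 0.38, the first slide standing apart from the others. It was 0.34 without the first null array (adjusted p = 0.344). It passed with array weights (0.75, adjusted p = 0.0183), a setting that called far more of all genes than the main fit. Il17rd, a membrane protein that binds Fgf receptors and blocks signalling below them, had 1.86, 1.70 and 1.59 on null arrays and 1.77, 1.64 and 1.56 on wild type arrays. The ranges nearly coincided, and the differences within the slides were 0.08, 0.06 and 0.03. The difference was 0.06 ± 0.14 (95% interval -0.27 to 0.38, adjusted p = 0.797).

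The 3 Etv factors make up the Pea3 subfamily of Ets proteins and carry the Fgf signal on to further genes. Etv1 had the smallest p among the members. Its brighter probe read 0.86, 0.89 and 0.81 on null arrays and 0.70, 0.37 and 0.41 on wild type arrays. The null arrays lay close together (SD 0.04) and above all wild type arrays (SD 0.18). The difference was 0.36 ± 0.14 (95% interval 0.03 to 0.70, unadjusted p = 0.0378 and adjusted p = 0.110 in limma, and 0.122 adjusted with the slide as a block). It passed with normexp (0.37, adjusted p = 0.0432) and with array weights (0.41, adjusted p = 0.0260). Within slides 1, 2 and 3 it was 0.16, 0.52 and 0.41. A second Etv1 probe was dim, and on wild type arrays only 2 of its 3 values passed as well above background. That probe read -4.91, -5.24 and -5.66 on null arrays and -6.08, -6.28 and -5.24 on wild type arrays. It overlapped between groups and differed by 0.60 (adjusted p = 0.235 as a single probe). Etv4 had 1.22, 0.87 and 1.23 on null arrays and 1.11, 0.89 and 1.54 on wild type arrays. All but the second null value fell inside the wild type range, and the difference was -0.07 ± 0.20 (95% interval -0.56 to 0.41, adjusted p = 0.823). Both groups had their lowest value on slide 2. The second Etv4 probe had -0.95, -1.42 and -0.67 on null arrays and -1.45, -1.58 and -0.54 on wild type arrays, and differed by 0.18 (adjusted p = 0.742 as a single probe). Etv5 had 3.16, 3.23 and 3.07 on null arrays and 3.32, 3.22 and 3.34 on wild type arrays. Its difference of -0.14 ± 0.12 (95% interval -0.43 to 0.15, adjusted p = 0.446) was 0.02 after quantile normalization and 0.05 with normexp, so no direction was set. The spread of Etv5 was small in both groups (SD 0.08 in null heads and 0.07 in wild type heads).

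Within slides 1, 2 and 3 the median difference of the 9 members was 0.11, 0.27 and 0.19, beside medians of -0.06, -0.01 and -0.03 over all genes. Spred1, Spred2, Etv1, Il17rd and Dusp6 were above 0 within all 3 slides, Spry1, Spry2 and Etv4 lay on both sides of 0, and Etv5 gave -0.17, 0.01 and -0.27. The share of all genes above 0 within all 3 slides was not counted, so these signs are not read as particular to the members. In the order of p-values over the 14906 genes, Etv1 stood at 5112, Spred2 at 5400 and Dusp6 at 7197, and Il17rd, Etv4 and Spry2 at 12847, 13147 and 13585. Whether members differed from each other in their response was not tested. The 5 genes whose signal over the 6 arrays ran most like that of Etv1, the member with the smallest p, were Egflam, Cdrt4, Lypd2, Nrros and Il33, with Pearson correlations of 0.991 to 0.995 over arrays that include the genotype difference. They were picked as the highest values among all genes tested, over only 6 arrays. Shared regulation with Etv1 was not tested.

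**Figure D2:**
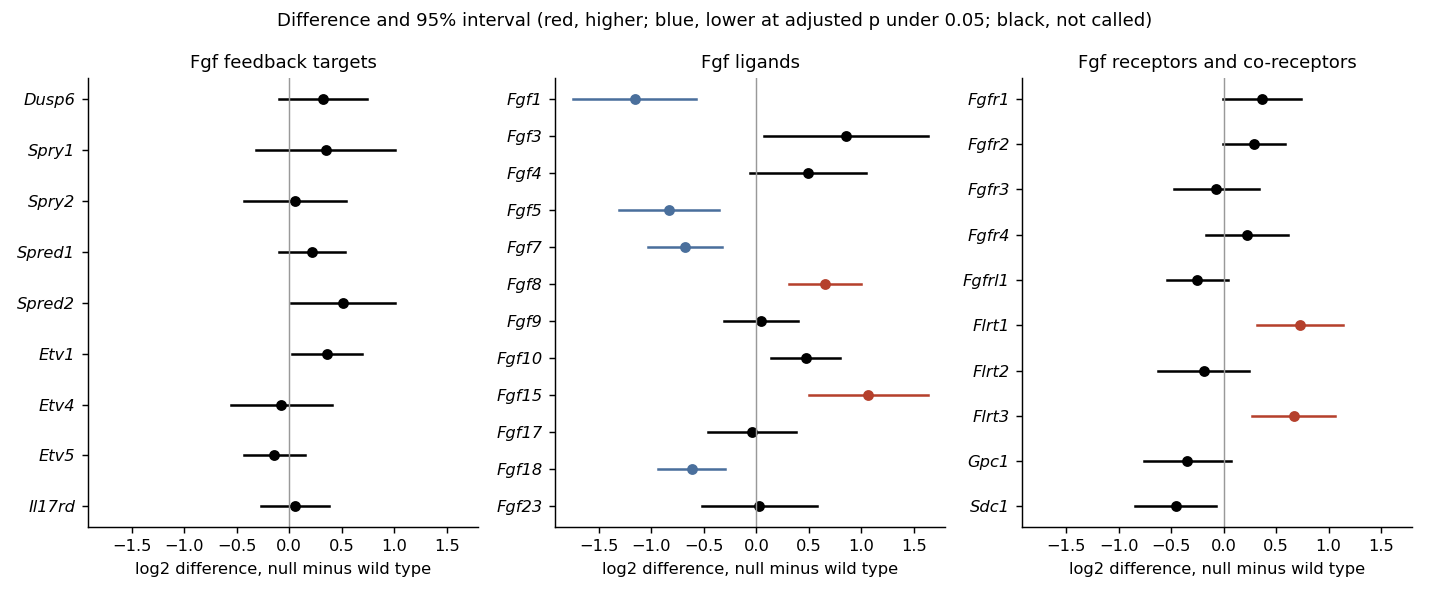
Log2 difference, null minus wild type, with its 95% interval from limma (lines) for the tested Fgf feedback targets, Fgf ligands, and Fgf receptors and co-receptors. Red marks genes called higher and blue genes called lower at an adjusted p under 0.05. None of the 9 feedback targets is coloured, while Fgf8 and Fgf15 are red and Fgf18, Fgf1, Fgf7 and Fgf5 blue, the last 3 in dim probes that normexp left uncalled.

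Of 18 ligand genes 12 were tested, 2 rose and 4 fell (50% called, beside 23.5% of all genes). Among the falls, 1 (Fgf5) was in a probe that passed the filter on dim probes through the wild type group alone. Fgf8, the ligand of the midbrain-hindbrain boundary and of arch and forebrain epithelium, had 1.49, 1.30 and 1.28 on null arrays and 0.70, 0.54 and 0.87 on wild type arrays. It was 1.57-fold higher in null heads with no overlap (log2 difference 0.65 ± 0.15, adjusted p = 0.0202), and its second probe gave 0.55 (adjusted p = 0.0949 as a single probe). Leaving out 1 array ended the call in 5 of 6 cases, with all but wild type replicate 3, at differences of 0.57 to 0.69 and adjusted p of 0.0555 to 0.0917. Fgf15, a ligand of the neural tube, was 2.09-fold higher (log2 difference 1.06 ± 0.24, adjusted p = 0.0208), a call that ended when wild type array 1 or 2 or null array 1 was left out (adjusted p of 0.0641, 0.0504 and 0.0676). Fgf18 was 1.53-fold lower (log2 difference -0.62 ± 0.14, adjusted p = 0.0196), with -0.66 on its second probe. Leaving out wild type array 2 or any null array ended that call (adjusted p of 0.0602 to 0.0747). The other falls, Fgf1, Fgf7 and Fgf5, were in dim probes, and the probe of Fgf5 was above background on 1 null array and 3 wild type arrays. With normexp their differences shrank to -0.30, -0.11 and -0.05, none of them called. Each of these 3 calls also ended without null array 1 or 3, those of Fgf7 and Fgf5 also without null array 2 or wild type array 1, and that of Fgf5 without wild type array 2 (adjusted p of 0.0531 to 0.0961). Fgf7 was not called with quantile normalization, the deposited table or an intensity trend (0.110, 0.119 and 0.0784), nor Fgf5 with the trend or without the filter on dim probes (0.0739 and 0.0592).

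The change of Fgf8 was set against that of each member, in a comparison chosen after the values were seen. Fgf8 was called in these same data and no member was, so an excess of Fgf8 was partly built into the choice. Fgf8 differed more than Etv5 by 0.80, more than Etv4 by 0.73, more than Spry2 and Il17rd by 0.60 each and more than Spred1 by 0.44. The log ratio of Fgf8 to each of these 5 genes was higher on every null array than on any wild type array. Fgf8 alone also showed no overlap, and how often its ratio to other genes keeps the groups apart was not tested. For Dusp6, Spry1, Etv1 and Spred2 the excess was 0.33, 0.31, 0.29 and 0.14, and the groups overlapped. A two-sided exact permutation test gave p = 0.1 for each of the first 5, and 0.18 after adjustment over the 9 comparisons. For the other 4 the exact p was 0.2 to 0.7. The smallest p that 3 arrays against 3 allow is 0.1, which lies above the threshold for a call. No comparison could therefore pass, and this test cannot decide whether Fgf8 changed more than any member.

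**Figure D3:**
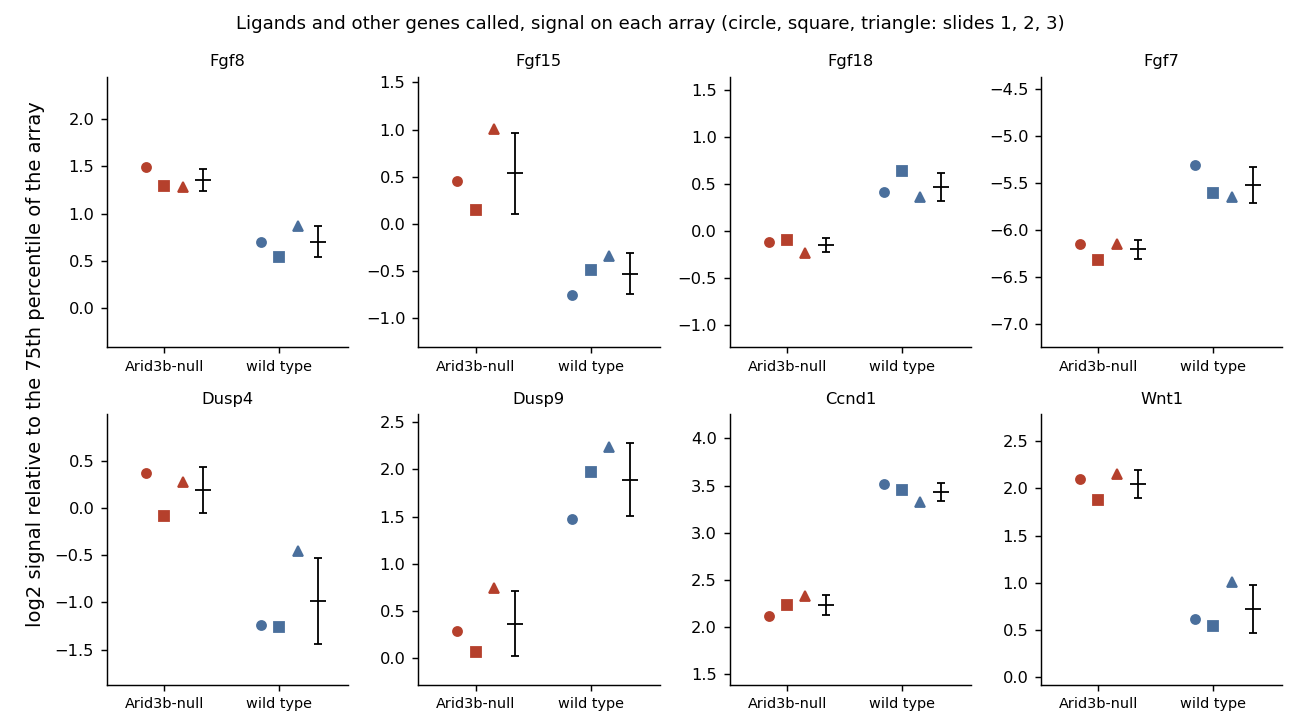
Log2 signal relative to the 75th percentile of the array on each Arid3b-null array (red) and wild type array (blue) for 4 Fgf ligands, 2 other Dusp phosphatases, Ccnd1 and Wnt1, with circle, square and triangle for slides 1, 2 and 3 and bars for the mean and SD of 3 arrays. The groups do not overlap in any of the 8 panels.

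Of the 10 receptors and co-receptors tested, 2 rose and none fell (20% called, below the 23.5% of all genes). Fgfr1, Fgfr2, Fgfr3 and Fgfr4 differed by 0.37, 0.29, -0.07 and 0.22 (adjusted p of 0.138, 0.138, 0.806 and 0.366), though the dimmer probe of Fgfr2 was higher by 0.95 as a single probe (adjusted p = 0.0453) and the mean of its probes by 0.62 (adjusted p = 0.0410). Fgfr1 and Fgfr2 passed with array weights, where far more of all genes were called (0.51 and 0.37, adjusted p of 0.0108 and 0.0196). Fgfr1 also passed without wild type array 3 (0.49, adjusted p = 0.0349). Flrt1 and Flrt3, membrane proteins of the leucine-rich repeat family that can associate with Fgf receptors, rose by 0.73 ± 0.17 and 0.67 ± 0.17 (adjusted p of 0.0246 and 0.0293). Leaving out wild type replicate 1 or 2 or null replicate 1 or 2 ended the call of Flrt1 (adjusted p of 0.0558 to 0.0947), leaving out wild type replicate 2 or any null replicate that of Flrt3 (0.0566 to 0.102), and Flrt3 was 0.44 as the mean of its probes (adjusted p = 0.213). Among 26 adaptors and kinases of the Ras-Erk cascade 1 rose and 1 fell, a share of 7.69%. With the slide as a block Mapk3, the gene of the kinase Erk1, was called too (log2 difference 0.91, adjusted p = 0.0310, against 0.0689 without the block), and its second probe was higher by 0.92 as a single probe without the block (adjusted p = 0.0245). Rps6ka3, an Erk-activated kinase, rose by 0.76 ± 0.19 (adjusted p = 0.0311) and Hras fell by 0.75 ± 0.17 (adjusted p = 0.0208). The Rps6ka3 call was lost in 5 of 6 fits with 1 array left out, all but that without wild type replicate 3 (adjusted p of 0.0643 to 0.106), and the Hras call without null replicate 1 or 2 (0.0800 and 0.0752), with quantile normalization (0.0508) and with the deposited table (0.0542).

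Of 11 tested paralogues of the members and other Dusp genes, 1 rose and 1 fell, a share of 18.2%, below the 23.5% of all genes. Dusp4, a nuclear phosphatase of Erk and other kinases, had 0.38, -0.09 and 0.27 on null arrays and -1.24, -1.26 and -0.46 on wild type arrays. It was 2.25-fold higher (log2 difference 1.17 ± 0.25, adjusted p = 0.0182), a call that ended when wild type array 1 or 2 or null array 1 or 3 was left out (adjusted p of 0.0533 to 0.0747). Dusp9, a cytoplasmic Erk phosphatase like Dusp6, had 0.29, 0.07 and 0.74 on null arrays and 1.47, 1.97 and 2.23 on wild type arrays. It was 2.88-fold lower (log2 difference -1.53 ± 0.25, adjusted p = 0.00727), the lowest null array far below the lowest wild type array. Of 15 tested genes induced by Erk in other settings, 4 rose and 1 fell (33.3%). Ier3 rose by 3.34 ± 0.20 and the zinc finger gene Egr2 by 1.15 ± 0.22 (adjusted p of 4.33e-04 and 0.0116), while Ccnd1, the cyclin of entry into the cell cycle, fell by 1.20 ± 0.13 (adjusted p = 0.00219). The call of Egr2 was lost without null replicate 1 or 3 (0.0541 and 0.0513).

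**Figure D4:**
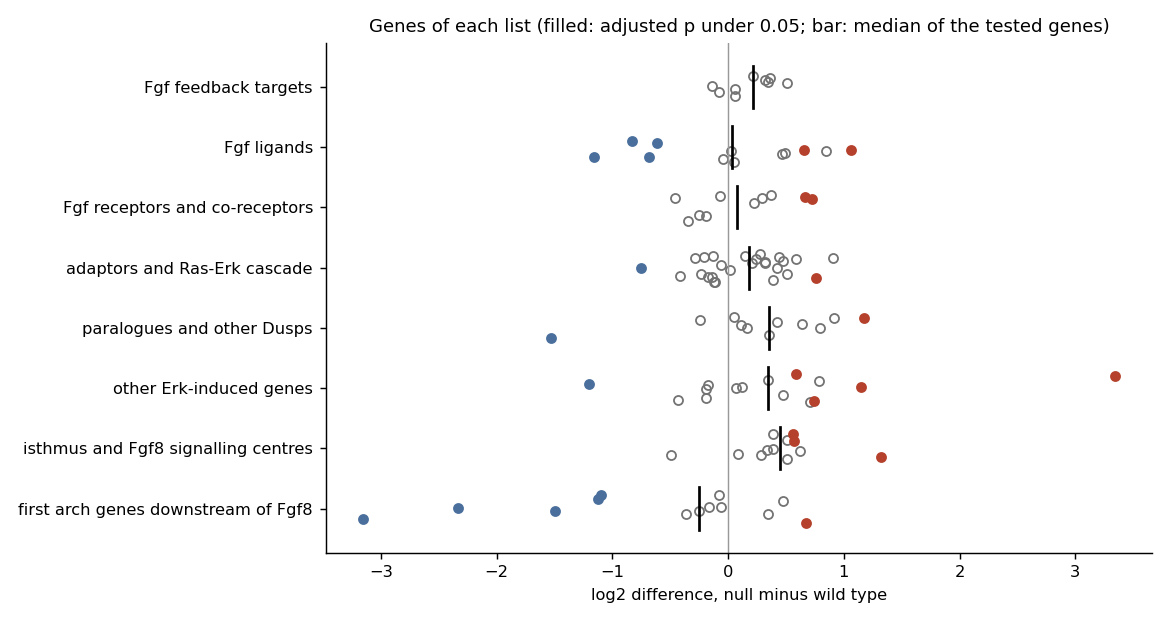
Log2 difference, null minus wild type, of each tested gene in the Fgf feedback targets and in 7 lists of related genes, with filled points for genes called at an adjusted p under 0.05 and a bar at the median of the tested genes. The feedback targets lie between -0.14 and 0.51 with no filled point, while the other lists hold from 2 to 6 filled points each. Those points are 7.69% to 50% of the tested genes of a list, beside 23.5% of all genes.

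Of 12 genes of the midbrain-hindbrain boundary and forebrain signalling centres 3 rose and none fell, 25% against 23.5% of all genes and so near that background, and 1 of the 3, Lmx1b, was not called with the slide as a block. Wnt1, a ligand of the midbrain side of the boundary, was higher by 1.32 ± 0.17 (adjusted p = 0.00354) and Otx2 by 0.57 ± 0.16 (adjusted p = 0.0401, and 0.0627 to 0.135 without any 1 array other than wild type replicate 3). Of 13 first arch genes that depend on Fgf8 or lie near its source, 5 fell and 1 rose (46.2% called), and the transcription factor genes Lhx8, Barx1 and Pitx1 had log2 differences of -3.15 ± 0.26, -2.34 ± 0.25 and -1.10 ± 0.14.

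Markers of the tissues in these heads were read as the summed signal of each list on an array, in units of that array's 75th percentile, a sum that its brightest probes carry. Counts of called markers use the brightest probe of each gene and stand beside 12.3% of all genes called higher and 11.2% called lower. The dimmer probes of Kdr and Neurod1, not counted, were called as single probes in limma (0.76 and -0.80, adjusted p of 0.0217 and 0.0170). The dimmer probe of Prrx1, a gene counted as lower, was higher by 0.68 (adjusted p = 0.0734 as a single probe). Neural tube markers summed to 20.9 to 22.7 in null heads and 31.5 to 37.3 in wild type heads, with 3 of 6 lower and 1 higher. Neuron markers summed to 4.74 to 5.83 in null heads and 7.32 to 9.98 in wild type heads, with 1 of 6 lower. Arch and crest mesenchyme markers summed to 22.4 to 22.9 in null heads and 20.5 to 22.2 in wild type heads, with 2 of 8 higher and 2 lower. Surface ectoderm markers summed to 34.4 to 36.5 in null heads and 22.3 to 47.6 in wild type heads, and endothelial markers to 20.6 to 24.2 and 22.1 to 26.1, with 0 of 6 called in each. Of 6 erythroid markers and 3 tested markers of blood immune cells 1 each was lower, and of 5 tested heart muscle markers none was called; the heart gene Myl7 passed as well above background on 0 null arrays and 2 wild type arrays. The part of these shifts in the values of the feedback targets was not tested.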

How the data were processed

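Per the labels' protocols, RNA from pools of 4 embryos was amplified and labelled with Cy3 for one-colour arrays. Per the file headers, scans were quantified by Agilent Feature Extraction 10.7.3.1, and the deposited scanner files give a background-subtracted, detrended intensity per spot, raw median intensities and quality flags. The authors deposited a table of log2 values whose making was not stated in labels or headers; its columns correlate at 0.999 or more with their own arrays, and its scaling stays unknown. It held 7 of the members.

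Here, control and outlier-flagged spots were left out, log2 intensity was set against the 75th percentile of each array, and spots of a probe were averaged. Of 39429 probes, 26424 were named through RefSeq accessions (assembly GRCm38; the files analysed here hold no gene name column). A probe entered the fit if it was well above background throughout a group and had values on 5 or more arrays (26288 probes), and the brightest stood for its gene. All 14906 genes were fitted together with limma 3.58.1 in R 4.3.3 (lmFit, eBayes, Benjamini-Hochberg adjustment), after a check on simulated data. The number of arrays limits precision. Null and wild type arrays of 1 number shared a slide, so the replicate block is the slide block. Deviations of same-numbered arrays from their group means correlated across genes at -0.20, 0.15 and 0.42 for numbers 1, 2 and 3. Those of null and wild type arrays of different numbers correlated at -0.52 to 0.49, a range that holds the same-numbered values. Whether same-numbered arrays were more alike than others was not tested.

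The members and lists were chosen with earlier results of these data known. Named were all members, Arid3b, called ligands and Fgfr1 to Fgfr4, up to 4 called genes with the smallest p per list (not all are named) and the 5 profiles most like the member of smallest p. Normexp used the median signals (offset 50), which the plan allowed for files without mean signals. Quantile normalization between arrays followed it, so that setting and quantile normalization share a step.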

Additional observations from a re-analysis of the deposited data

How the results depend on the processing

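The dim probes of Spry2, Spry4 and the second probe of Etv1 limit what can be read for them. The count of feedback targets called was 0 with 15 of the 17 alternatives, and 2 with normexp (Dusp6 and Etv1) and 2 with array weights (Spred2 and Etv1), all higher in null heads; it was 0 in every fit with 1 array left out. The deposited table held 7 of the 9 members tested and lacked Dusp6 and Spred1, so its 0 does not bear on those. Of 14906 genes 3506 were called. That count was 2270 of 20021 without the filter on dim probes, 6685 with array weights and 1516 to 5199 with 1 array left out. The count of other pathway genes, 26 of 99, was 17 of 111, 56 and 9 to 38 in the same settings. In the main fit their share called was near the 23.5% of all genes. With array weights the 2 of 9 members called were a smaller share than that of all genes. With the replicate block the counts were 0 members, 29 pathway genes and 3689 genes, and among the pathway genes the calls of Lmx1b and Fosl2 were lost (log2 0.56 and 0.59, adjusted p of 0.0688 and 0.0515) and those of Fgf3, Mapk3, Dusp10, Egr1 and Pax8 gained (log2 0.62 to 0.92, adjusted p of 0.0255 to 0.0373).

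Signs turned for values near 0, none of them called. Etv5 was 0.0217 with quantile normalization, 0.0235 with the deposited table and 0.0523 with normexp. Etv4 was 0.0531 as the mean of its probes, 0.16 with array weights and -0.22 to 0.10 with 1 array left out. Spry2 was -0.00462 with array weights and -0.0514 to 0.24 with 1 array left out, and Il17rd was -0.0129 to 0.12 with 1 array left out. Fgfr3 was 0.0109 with quantile normalization, 0.00846 with the deposited table, 0.0690 as the mean of its probes, 0.0591 with array weights and -0.14 to 0.0778 with 1 array left out, and Fgfr4 was -0.0456 as the mean of its probes. The causes were not tested.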
